A study of Mus musculus with 8 samples.

Results

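The neuropeptide system of the mouse hippocampus was followed through 42 genes, chosen by symbol from a list of peptide precursors, interneuron markers, peptide receptors, granins and precursor-processing enzymes, out of 40659 genes in the deposited count table. The list held 17 peptide precursors, 2 calcium-binding markers of interneurons, 15 receptors with 1 binding protein, 4 granins and 3 enzymes, and its symbols were matched to the table's identifiers through GENCODE. PolyA-RNA of whole hippocampi had been sequenced from male C57BL/6JRj mice, 4 of them carrying hp708 and 4 carrying hpCTL. Both were recombinant adeno-associated viruses (rAAV) injected into the dorsal and ventral hippocampus, in which the human synapsin (hSYN) promoter drove EGFP in neurons. In hp708 the EGFP transcript carried a hairpin that is processed to miR-708-5p, and hpCTL carried the control hairpin. The mice had surgery at 7 to 8 weeks of age and were sampled 4 weeks later. The labels give an age of 12 to 13 weeks, which does not match those times exactly. The comparison asked how added miR-708-5p changes the hippocampal transcriptome.

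Neuropeptides are made as long precursors, cut by prohormone convertases, trimmed by carboxypeptidase E and packed with granins into dense-core vesicles. They act on G protein-coupled receptors that are often carried by other cells than those that release the peptide. In the hippocampus many precursors mark classes of GABAergic interneurons: Sst and Npy mark dendrite-targeting cells, Vip marks cells that mainly inhibit other interneurons, Cck marks a class of basket cells, and Pvalb and Calb2 encode the calcium-binding proteins of further classes. Others, such as Penk, Pdyn and Adcyap1, are made by principal neurons as well. In bulk tissue, fewer cells of a type and less RNA per cell cannot be told apart.

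A microRNA lowers transcripts mainly through its seed, bases 2 to 8, which pairs with a match in the 3'UTR. The mature sequence of the overexpressed microRNA is shown because every site below is defined by it, with the seed in capitals (RefSeq, GRCm38.p6 table).
mmu-miR-708-5p: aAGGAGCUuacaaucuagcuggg
Matches to this seed were searched in the longest annotated 3'UTR of each gene on GRCm39. Sites that lacked only the match to base 8 were counted too, where an adenine lay opposite position 1 of the microRNA. They were found in 5 of the 39 listed genes that were tested (12.8%), against 3927 of 14808 tested genes with a 3'UTR (26.5%). The median 3'UTR was shorter in the listed genes, 1158 bases against 1865. The 6 sites are printed 5' to 3' on the transcript strand as DNA, with the 22 bases that end at the base opposite position 1 of the microRNA. Capitals mark the match to bases 2 to 8, and a final capital A marks the adenine that makes an 8mer.
Adcyap1, chr17:93512462-93512483, plus strand: ctgggggcaagtctAGCTCCTc
Adcyap1r1, chr6:55474680-55474701, plus strand: ttgtccaggtgctcAGCTCCTg
Cck, chr9:121317849-121317870, minus strand: accacccgcagtgcAGCTCCTc
Cck, chr9:121316597-121316618, minus strand: caattcaaggacttAGCTCCTt
Pcsk1, chr13:75280702-75280723, plus strand: tactacagtagaaaAGCTCCTA
Pdyn, chr2:129529275-129529296, minus strand: tcctggaaaaacccAGCTCCTA
The sites in Pcsk1 and Pdyn are 8mers, and the others are 7mers pairing with bases 2 to 8. PACAP, the peptide made from Adcyap1, and its receptor Adcyap1r1 both have one.

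The libraries held 22606824 to 28462428 counts, and no library was a copy of another. The mature microRNA is not measured by polyA-RNA libraries, so its overexpression was not checked here. The animal of the library labelled hp708 replicate 1 is listed under hpCTL in the source data of a qPCR panel of the same study, so the fit was repeated without that library. Markers of pyramidal and dentate granule cells were all above 1 CPM (counts scaled to a common library size) in hpCTL, as were 34 of 35 further interneuron markers. Summed choroid plexus markers ranged from 55.9 to 2079 CPM in hpCTL and from 109 to 4440 CPM in hp708. Summed markers of subiculum and cortex were 530 to 626 CPM in hpCTL, 604 CPM in the library labelled hp708 replicate 1 and 456 to 485 CPM in the other hp708 libraries. In these lists 10 of 10 tested subiculum and cortex markers had a lower fitted level in hp708, 4 of them at an unadjusted p below 0.05, and 5 of 5 microglia markers did, 3 of them at that threshold, where 53.2% of all genes were lower and 4.87% lower at the threshold. The summed microglia markers nevertheless overlapped fully, at 314 to 418 CPM in hpCTL and 298 to 425 CPM in hp708, and the exact permutation p was 0.600 for Aif1, 0.286 for Csf1r and 0.657 for Tmem119, the markers at that threshold. Markers of the main hippocampal cells went the other way in the fit. Of 8 pyramidal markers 6 were higher, 2 of them at an unadjusted p below 0.05. Of 8 dentate granule markers 7 were higher, 1 of them at that threshold. Higher at that threshold were 2.82% of all genes. The summed pyramidal markers overlapped, at 807 to 1006 CPM in hpCTL and 844 to 947 CPM in hp708. So did the dentate sums, at 322 to 415 CPM in hpCTL and 313 to 521 CPM in hp708. For the markers at that threshold the exact permutation p was 0.314 (Bok), 0.257 (Iyd) and 0.229 (Pdzd2). The part of these differences in the results below was not tested.

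The 42 genes spanned several orders of magnitude. On a length-scaled level (CPM per kilobase of the canonical transcript, mean of 8 libraries), the exopeptidase gene Cpe stood at 1012 and Chgb, a granin that helps form dense-core vesicles, at 165. Among precursors, Sst was highest at 95.1, followed by Npy at 63.7 and Cck at 37.8. The highest receptor was Adcyap1r1, the receptor for PACAP, at 31.3, far above the precursor Adcyap1 at 0.923. Oprl1, the nociceptin receptor, stood at 15.3 and its ligand precursor Pnoc at 3.66. The 3 genes that did not pass the filter on low counts were Gal (galanin), Trh (thyrotropin-releasing hormone) and Oprm1 (the mu opioid receptor), at length-scaled levels of 0.336, 0.207 and 0.233, with 54, 59 and 62 counts over all 8 libraries. They received no test.

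**Figure D1:**
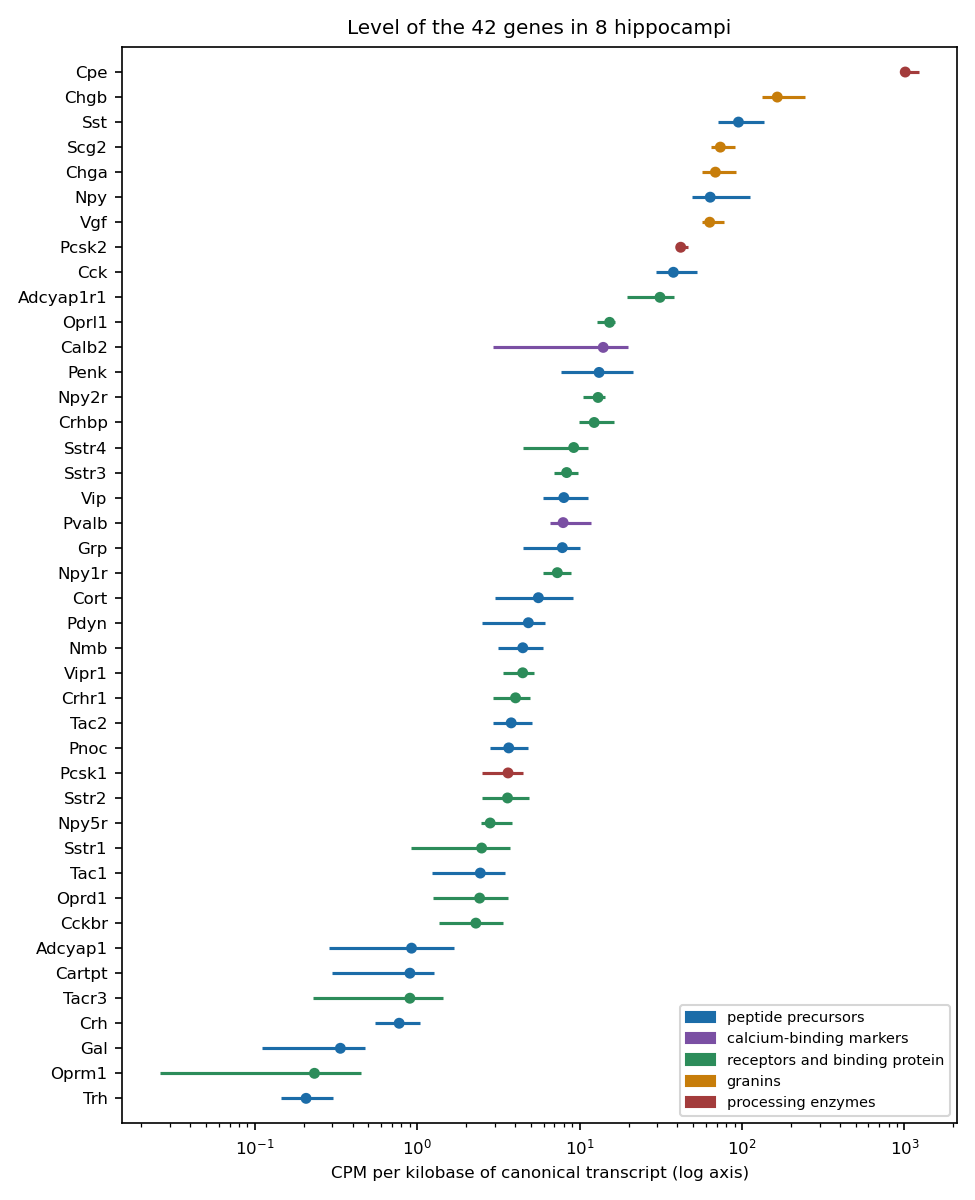
Length-scaled level (CPM per kilobase of canonical transcript, log axis) of the 42 genes. Points are means of 8 libraries, lines run from the lowest to the highest library and colours give the role. Cpe is highest at 1012 and Trh lowest at 0.207. Oprm1 has the longest line, and Calb2, Tacr3 and Adcyap1 also have long lines toward low values.

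At 4 weeks after injection, no listed gene passed correction for multiple testing. Of 15 tested precursors, 11 had a lower fitted level in hp708 (73.3%, against 53.2% of all genes). Those lower at an unadjusted p below 0.05 were 4 (26.7%, against 4.87% of all genes), namely Vip, Sst, Nmb (neuromedin B) and Cartpt (the CART peptide precursor). The other listed gene at that threshold was the somatostatin receptor gene Sstr3, which was higher. Calcium-binding markers, granins and processing enzymes had none. The summed level of all 17 precursors overlapped between the groups, at 609, 471, 402 and 433 CPM in hpCTL and 429, 447, 428 and 451 CPM in hp708, with hpCTL replicate 1 far above the rest.

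Fold changes were fitted with edgeR's quasi-likelihood test across 17252 genes with 3 surrogate variables, which are estimated axes of unwanted variation, so that a fitted value can differ from the plain ratio of CPM. Of the 39 tested genes, 5 had an unadjusted p below 0.05 (12.8%), against 7.7% of all genes. Lower at that threshold were 4, against 4.87% of all genes, and higher was 1, against 2.82% of all genes. None of the 39 was called at a false discovery rate (FDR) below 0.05, against 0.0058% of all genes, which is 1 gene, and the lowest FDR among them was 0.4997, that of Nmb. DESeq2 with 3 surrogate variables also called none of them, out of 96 genes called, and had 3 at an unadjusted p below 0.05, against 5.02% of all genes. In none of the 39 were the CPM values of the groups free of overlap, against 1.51% of all genes. Fitted levels were lower in hp708 for 27 of 39 (69.2%), against 53.2% of all genes, and the median of the fold changes was -0.05 on the log2 scale, against -0.01.

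**Figure D2:**
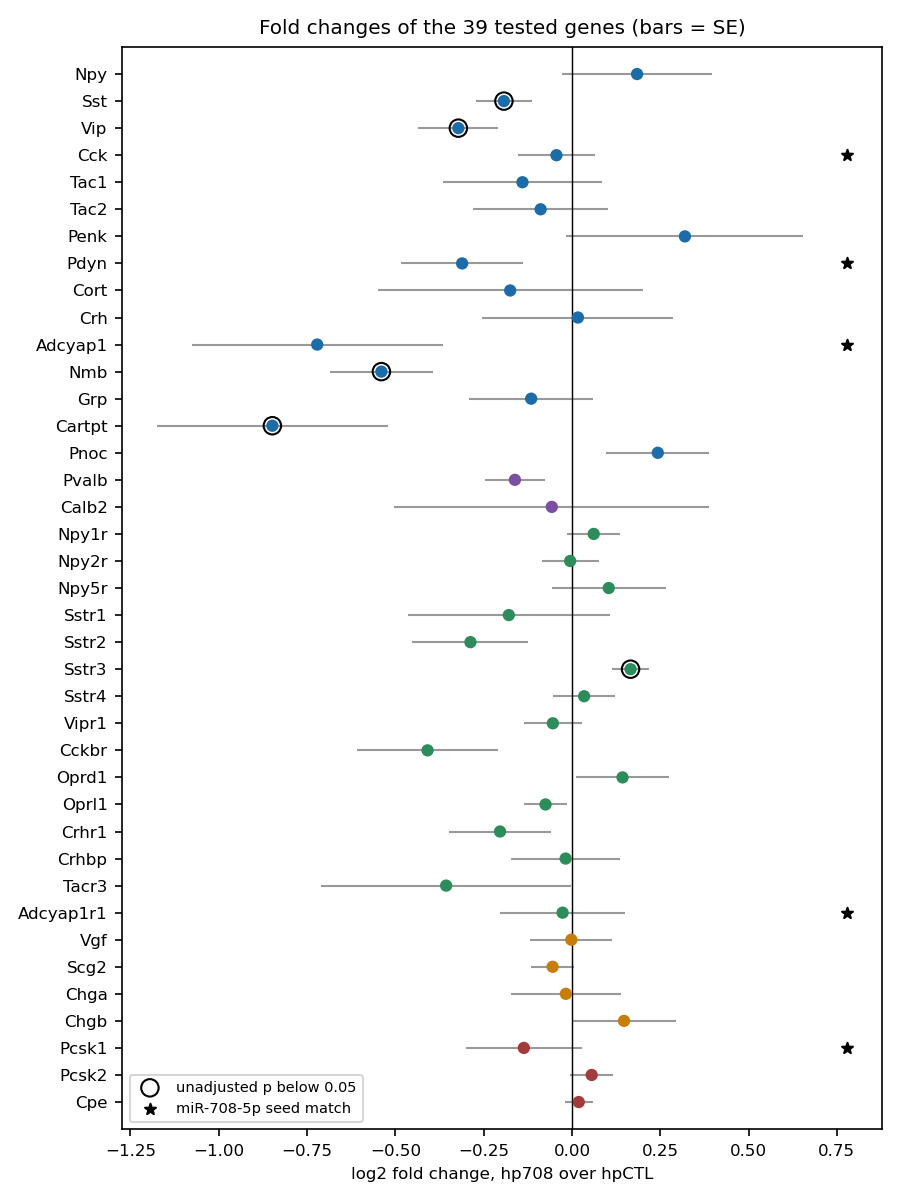
Log2 fold change of hp708 over hpCTL for the 39 tested genes, from the fit with 3 surrogate variables, with bars for the SE (n = 4 libraries per group) and colours for the roles. Black rings mark the 5 genes with an unadjusted p below 0.05 and stars the 5 genes with a miR-708-5p seed match, all of which lie left of 0.

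Vip (chr10:5589186-5599956, GRCm39) encodes vasoactive intestinal peptide. Replicates 1 to 4 of hpCTL had 17.7, 12.6, 13.3 and 13.9 CPM, and replicates 1 to 4 of hp708 had 13.0, 9.26, 9.97 and 10.5 CPM. Of the hp708 libraries, 3 lay below every hpCTL library, and the library labelled hp708 replicate 1 lay inside the hpCTL range. The log2 fold change was -0.32 with an SE of 0.11 (edgeR's quasi-likelihood test, p = 0.0241, FDR = 0.594), and the exact permutation p over the 8 libraries was 0.0571, where 0.0286 is the smallest possible. Vip had an unadjusted p below 0.05 in 12 of 12 alternative fits with all libraries, in 4 of 8 fits that left out a library with 3 surrogate variables, and in 8 of 8 such fits without them. Vipr1, a receptor for this peptide, had a log2 fold change of -0.05 (SE 0.08).

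Sst (chr16:23707321-23711733) encodes somatostatin. Its levels were 234, 183, 135 and 168 CPM in hpCTL replicates 1 to 4, and 163, 161, 143 and 123 CPM in hp708 replicates 1 to 4. The groups overlapped, since 1 hp708 library lay below the hpCTL range. Its fitted log2 fold change was -0.19 with an SE of 0.08 (edgeR's quasi-likelihood test, p = 0.0430, FDR = 0.642), and the exact permutation p was 0.229. Sst had an unadjusted p below 0.05 in 6 of 12 alternative fits with all libraries, and with a library left out in 5 of 8 with 3 surrogate variables and 1 of 8 without. With hp708 replicate 4 left out its value was -0.12 (edgeR's quasi-likelihood test, FDR = 0.864) and the unadjusted p was no longer below 0.05. Its related precursor Cort, for cortistatin, had a log2 fold change of -0.17 (SE 0.37).

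Nmb (chr7:80551975-80554829) encodes neuromedin B, a bombesin-like peptide. It measured 4.21, 3.80, 3.45 and 3.30 CPM in hpCTL and 2.43, 3.65, 2.30 and 2.23 CPM in hp708, in replicate order. Replicate 2 of hp708 lay among the hpCTL libraries and the others below all of them. The log2 fold change was -0.54 with an SE of 0.15 (edgeR's quasi-likelihood test, p = 0.00725, FDR = 0.4997), and the exact permutation p was 0.0857. Its unadjusted p was below 0.05 in 11 of 12 alternative fits with all libraries, and with a library left out in 7 of 8 with 3 surrogate variables and 2 of 8 without. Exons of Nmb share 163 bases, 20.4% of its exonic length, with Sec11a on the same strand, so that counts there cannot be assigned to one of them.

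Cartpt (chr13:100034990-100047006) was close to the detection limit, with 9 to 38 counts per library. Its levels were 1.36, 1.57, 1.56 and 1.16 CPM in hpCTL and 0.979, 1.22, 0.725 and 0.372 CPM in hp708. The only overlap came from hp708 replicate 2, and replicate 4 was lowest. The log2 fold change was -0.85 with an SE of 0.33 (edgeR's quasi-likelihood test, p = 0.0349, FDR = 0.615), and the exact permutation p was 0.0571. Its unadjusted p was below 0.05 in 9 of the 11 alternative fits that tested it with all libraries, and with a library left out in 5 of 8 with 3 surrogate variables and 2 of 8 without. With hp708 replicate 4 left out it was -0.65 (FDR = 0.621).

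Adcyap1, described after its values were seen, carries the seed match printed first among the sites. Its levels were 5.03, 8.05, 5.13 and 4.32 CPM in hpCTL and 4.46, 1.70, 5.20 and 1.36 CPM in hp708. Replicates 2 and 4 of hp708 were far below all other libraries, and replicates 1 and 3 lay inside the hpCTL range. By edgeR's quasi-likelihood test its log2 fold change was -0.72 with an SE of 0.36 (FDR = 0.704). Without the library labelled hp708 replicate 1 it was -1.59 with an FDR of 0.0276, the one call among the listed genes in any fit, where 0.321% of all genes were called. That fit estimated 3 surrogate variables from 7 libraries. With the same library left out and no surrogate variables the value was -1.03 with an FDR of 0.999.

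Among the other precursors, Penk, which encodes the enkephalins, had the highest fold change. It measured 43.3, 21.0, 45.2 and 23.99 CPM in hpCTL and 43.8, 26.9, 27.2 and 58.5 CPM in hp708. Both groups held high and low libraries, and the log2 fold change was 0.32 with an SE of 0.34 (FDR = 0.865). With a library left out and 3 surrogate variables the value ranged from 0.12 to 0.72. Its unadjusted p was below 0.05 in 4 of 8 such fits and in 0 of 8 without surrogate variables. Exons of Penk share 390 bases with a gene on the opposite strand, and the counting was not stated to use strand. Npy, the neuropeptide Y precursor, had 27.99 to 39.4 CPM in hpCTL and 28.1, 38.95, 29.8 and 63.5 CPM in hp708, so that hp708 replicate 4 alone lay above the hpCTL range. Its log2 fold change was 0.18 (SE 0.21), and -0.01 without hp708 replicate 4. The remaining 8 tested precursors, Cck, Tac1, Tac2, Pdyn, Cort, Crh, Grp and Pnoc, had log2 fold changes between -0.31 (Pdyn, the dynorphin precursor) and 0.24 (Pnoc).

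**Figure D3:**
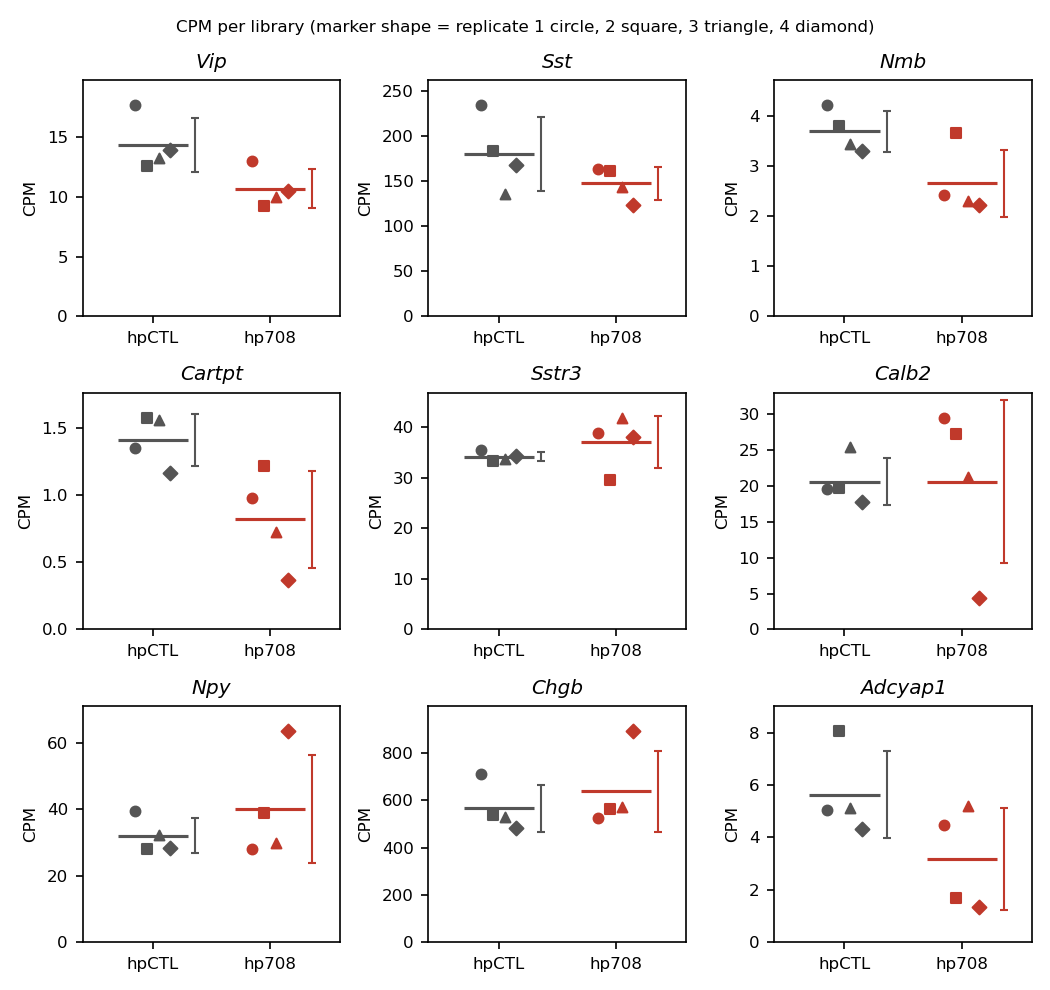
CPM in each library for 9 of the genes, hpCTL in grey and hp708 in red, with marker shapes for replicates 1 to 4, a line for the group mean and a bar for the SD (n = 4). The groups overlap in every panel. Replicate 4 of hp708 (diamond) is lowest for Calb2 at 4.34 CPM and highest for Chgb at 890 CPM and Npy at 63.5 CPM.

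The calcium-binding markers did not separate the groups. Pvalb, the parvalbumin gene of fast-spiking basket cells, measured 36.8, 23.7, 22.9 and 24.7 CPM in hpCTL and 24.1, 24.04, 20.6 and 22.1 CPM in hp708. One library, hpCTL replicate 1, was far above the rest, and the log2 fold change was -0.16 with an SE of 0.09 (FDR = 0.714). With that library left out the value was -0.04 (FDR = 0.892). Calb2, which encodes calretinin, measured 19.6, 19.7, 25.4 and 17.8 CPM in hpCTL and 29.4, 27.3, 21.2 and 4.34 CPM in hp708. Replicates 1 and 2 of hp708 lay above the hpCTL range and replicate 4 far below it. Its fitted log2 change was -0.06 (SE 0.45), and 0.31 without hp708 replicate 4 (FDR = 0.725).

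Of 15 tested receptors and binding proteins, 10 had a lower fitted level in hp708 (66.7%, against 53.2% of all genes), with log2 fold changes from -0.41 to 0.17 and a median of -0.03. Sstr3, a somatostatin receptor found on neuronal primary cilia, measured 35.5, 33.2, 33.7 and 34.2 CPM in hpCTL and 38.8, 29.6, 41.7 and 38.0 CPM in hp708. Of the hp708 libraries, 3 lay above the hpCTL range, with replicate 2 below it. Sstr3 had a log2 fold change of 0.17 with an SE of 0.05 (edgeR's quasi-likelihood test, p = 0.0161, FDR = 0.554), and the exact permutation p was 0.400. It had an unadjusted p below 0.05 in 5 of 12 alternative fits with all libraries, and with a library left out in 5 of 8 with 3 surrogate variables and 1 of 8 without. Without the library labelled hp708 replicate 1 the value was 0.08 (edgeR's quasi-likelihood test, FDR = 0.751) and the unadjusted p was no longer below 0.05. For the other somatostatin receptors the log2 fold changes were -0.18 (Sstr1), -0.29 (Sstr2) and 0.03 (Sstr4), with SEs of 0.29, 0.16 and 0.09.

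Cckbr, the brain receptor for cholecystokinin, had the lowest fold change of the receptors. It measured 5.53, 9.44, 7.79 and 6.98 CPM in hpCTL and 7.29, 4.13, 6.22 and 3.80 CPM in hp708. Replicates 2 and 4 of hp708 were below the hpCTL range, and the log2 fold change was -0.41 with an SE of 0.20 (FDR = 0.702). Tacr3, the neurokinin B receptor, showed the same libraries at the bottom, with 1.87 and 0.867 CPM against 3.23 to 5.44 CPM in all others, and a log2 fold change of -0.36 with an SE of 0.35 (FDR = 0.861). Adcyap1r1 measured 188, 222, 196 and 200 CPM in hpCTL and 216, 180, 238 and 121 CPM in hp708, and replicates 2 and 4 of hp708 were again below the hpCTL range. Its log2 fold change was -0.03 (SE 0.18). The neuropeptide Y receptors Npy1r, Npy2r and Npy5r had log2 fold changes of 0.06, -0.01 and 0.10.

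Granins and processing enzymes had fitted changes between -0.14 and 0.15 on the log2 scale, none at an unadjusted p below 0.05. Chgb measured 711, 536, 531 and 482 CPM in hpCTL and 523, 563, 572 and 890 CPM in hp708. Only hp708 replicate 4 exceeded the hpCTL range, and the log2 fold change was 0.15 with an SE of 0.15 (FDR = 0.861). With that library left out it was 0.03, and -0.03 without surrogate variables. Scg2, the precursor of secretoneurin, measured 229, 173, 201 and 161 CPM in hpCTL and 175, 176, 183 and 182 CPM in hp708, all of the latter inside the hpCTL range, with a log2 fold change of -0.05 (SE 0.06). Vgf and Chga had log2 fold changes of -0.00 and -0.02.

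The enzyme that trims cleaved precursors, encoded by Cpe, measured 3032, 2370, 2341 and 2352 CPM in hpCTL and 2508, 2423, 2517 and 2398 CPM in hp708. Its libraries outside hpCTL replicate 1 differed little, and the log2 fold change was 0.02 with an SE of 0.04 (FDR = 0.939). Pcsk1, a prohormone convertase with an 8mer site, measured 20.4, 27.0, 22.4 and 23.2 CPM in hpCTL and 22.04, 18.8, 25.8 and 15.1 CPM in hp708. Replicates 2 and 4 of hp708 lay below the hpCTL range, and the log2 fold change was -0.14 with an SE of 0.16 (FDR = 0.886). The other convertase, Pcsk2, measured 270, 257, 239 and 242 CPM in hpCTL and 256, 238, 259 and 282 CPM in hp708, with a log2 fold change of 0.06 (SE 0.06).

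With the library labelled hp708 replicate 1 left out and 3 surrogate variables estimated again, 18 of the 39 genes had an unadjusted p below 0.05, against 12.2% of all genes, and 14 of the 18 were lower. Without surrogate variables the same 7 libraries gave 4 of 39, against 3.42%. In the former fit several receptors lay further below hpCTL, with log2 fold changes of -1.39 for Tacr3 (FDR = 0.0677), -0.95 for Sstr1 (FDR = 0.142), -0.89 for Cckbr (FDR = 0.0578) and -0.37 for Adcyap1r1 (FDR = 0.201). Among precursors and markers the former fit put Cartpt at -1.11, Calb2 at -0.81, Nmb at -0.42, Vip at -0.42 and Sst at -0.26. It put Npy at 0.63 and Penk at 0.43. Nmb had a p of 0.0543 there by edgeR's quasi-likelihood test. Chgb stood at 0.38 and Pcsk1 at -0.41, and Pvalb, Pcsk2, Cpe and Scg2 stayed between -0.11 and 0.07. Adcyap1 alone was called in that fit. With hp708 replicate 4 left out instead, the receptors named above stood at -0.02 (Tacr3), 0.09 (Sstr1), -0.31 (Cckbr) and 0.09 (Adcyap1r1).

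**Figure D4:**
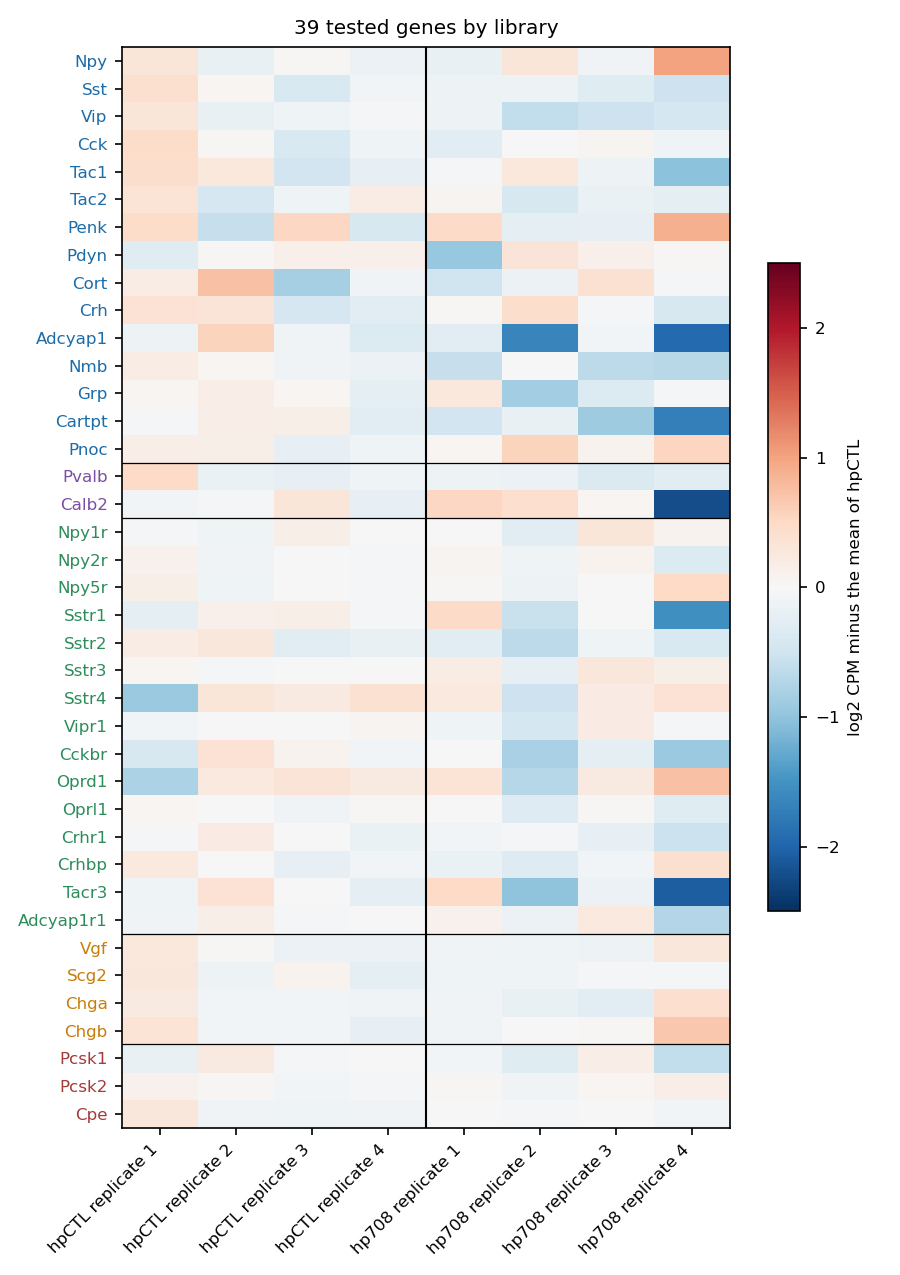
Log2 CPM of each library minus the hpCTL mean for the 39 tested genes, ordered by role, with red above and blue below that mean. The vertical line separates hpCTL from hp708. Column hp708 replicate 4 holds the strongest colours in both directions, and hp708 replicate 2 shares the low values of Adcyap1, Tacr3, Sstr1 and Cckbr.

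Libraries differed in how often they held the end of a gene's range, and hp708 replicate 4 did so most often among the listed genes. It held the highest or lowest of the 8 CPM values for 22 of 39 genes (56.4%), 9 highest and 13 lowest, while it did so for 31.8% of all tested genes. In contrast, hpCTL replicate 1 held an extreme for 33.3% of the listed genes and for 46.5% of all genes, and hpCTL replicate 2 for 25.6% and 13.3%. Replicate 4 of hp708 was lowest for Calb2, Tacr3, Sstr1 at 3.55 CPM, Adcyap1 and Cartpt, and highest for Npy, Penk, Chgb and Oprd1 at 14.7 CPM. The same library had the highest summed astrocyte markers, 3064 CPM against 2404 to 2645 CPM in the others. Gfap at 1250 CPM and Aqp4 at 227 CPM were highest there. Aldoc at 661 CPM and Gja1 at 154 CPM were instead the lowest of the 8 libraries. Slc1a3 at 772 CPM lay within the range of the others. The part of these markers in the pattern was not tested.

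**Figure D5:**
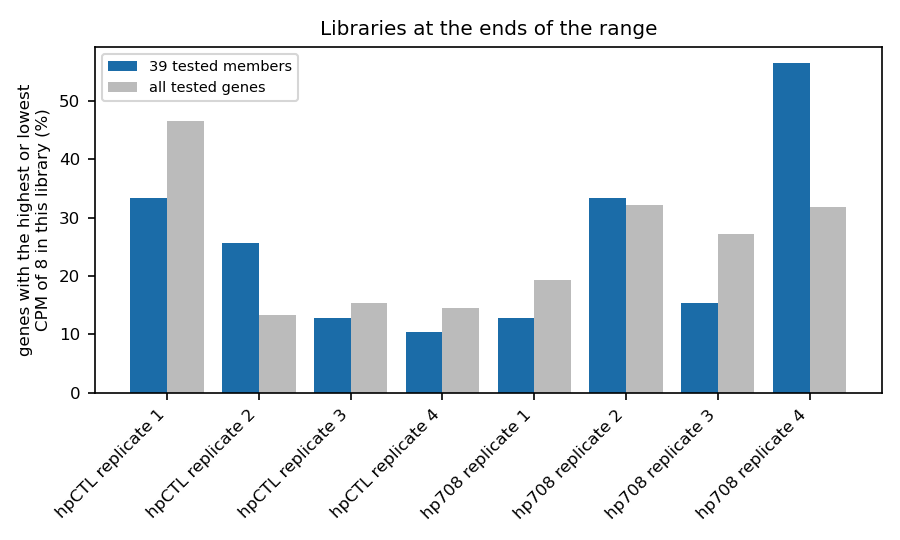
Share of genes (%) for which each library held the highest or lowest of the 8 CPM values, for the 39 tested listed genes (blue) and all 17252 tested genes (grey). The blue bar of hp708 replicate 4 reaches 56.4% over a grey bar of 31.8%, and the order is turned for hpCTL replicate 1 at 33.3% and 46.5%.

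Variation between animals was larger in hp708 for most of the listed genes. The SD of log2 CPM was larger in hp708 for 27 of 39 (69.2%), against 55.8% of all genes, and for 21 of 39 (53.8%) without hp708 replicate 4, against 51.4%. Among receptors it was larger for 13 of 15, and for 11 of 15 without that library. Among precursors it was larger for 8 of 15 (53.3%) both with and without that library. Among the granins the count went from 3 of 4 to 0 of 4.

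The 5 genes with a seed match all had lower fitted levels in hp708, from -0.72 for Adcyap1 through -0.31 for Pdyn, -0.14 for Pcsk1 and -0.04 for Cck to -0.03 for Adcyap1r1. Their median log2 fold change was -0.14, and 22 of the 34 without a match (64.7%) were lower too, with a median of -0.05. Over all genes with a match of either kind counted, 49.5% were lower, with a median of 0.00. None of the 5 had an unadjusted p below 0.05, and none of Vip, Sst, Nmb, Cartpt and Sstr3 had a match in the 3'UTR searched. For Pdyn the library labelled hp708 replicate 1 was the low one, at 6.52 CPM against 10.2 to 16.0 CPM in all others, and with that library left out the fitted value was 0.09. Cck and Adcyap1r1 also changed sign between fits that left out a library, with 0.07 for Cck without the library labelled hp708 replicate 1 and 0.09 for Adcyap1r1 without hp708 replicate 4.

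A sequence feature that the choice of genes did not use was the cAMP response element, the palindrome TGACGTCA to which CREB binds. In the 250 bases before to 50 bases after the gene start (RefSeq, GRCm38.p6), searched on both strands, it was present in 6 of the 34 listed genes with a promoter entry (17.6%), against 549 of 27025 genes (2.03%). These 6 were Sst, Cartpt, Sstr2, Scg2, Chgb and Pcsk1. The shorter TGACG, which is also part of the palindrome, was in 19 of 34 (55.9%), against 23.045%. The 6 genes with the palindrome had log2 fold changes from -0.85 (Cartpt) to 0.15 (Chgb), on either side of 0.

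Genes of the same pathway outside the list were compared in the same fit. Of 13 further tested precursors 10 were lower (76.9%, against 53.2% of all genes), and Nts (neurotensin) alone had an unadjusted p below 0.05 (7.69%, against 7.7%). Nts measured 5.68, 5.55, 6.97 and 7.44 CPM in hpCTL and 5.58, 3.87, 1.75 and 1.53 CPM in hp708, a log2 fold change of -1.12 with an SE of 0.24 (FDR = 0.382). Its overlap came from the library labelled hp708 replicate 1 alone. Of 28 further receptors, 1 was higher and 2 lower at that threshold (10.7%). By edgeR's quasi-likelihood test Npffr1, a receptor for RFamide peptides, was at 0.65 (FDR = 0.594). Rxfp1, the relaxin receptor, was at -0.96 (FDR = 0.294), and Npsr1, the neuropeptide S receptor, at -1.82 (FDR = 0.506). Npsr1 was near its detection limit, at 0.0435 CPM in hp708 replicate 2.

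Of 18 further genes of processing and dense-core vesicles, 3 passed the same threshold (16.7%, against 7.7% of all genes). Cadps2, which primes dense-core vesicles for release, measured 100.5, 95.4, 100.4 and 95.9 CPM in hpCTL and 92.0, 69.8, 87.7 and 66.9 CPM in hp708. All hp708 libraries were below all hpCTL libraries, which held for 1.51% of all genes in one direction or the other, the exact permutation p was 0.0286, the smallest possible, and the log2 fold change was -0.24 with an SE of 0.07 (edgeR's quasi-likelihood test, FDR = 0.511). Pcsk1n, encoding the convertase inhibitor proSAAS, was at -0.18 and Sort1, encoding the sorting receptor sortilin, at 0.11. Of 34 further interneuron genes, 17 were lower and 17 higher and the median change was -0.00 on the log2 scale, and Satb1 alone had an unadjusted p below 0.05 (2.94%), at -0.15. The SD of log2 CPM was larger in hp708 for 31 of these 34 genes (91.2%), and for 30 without hp708 replicate 4.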

How the data were processed

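The 8 polyA-RNA libraries, 4 per group, were grouped by the labels. The authors mapped reads to GRCm39 with STAR 2.7.8a, counted them per gene with featureCounts 1.6.4 and deposited the raw counts, not normalized. Strand and multi-mapping settings are not given in the sources used here. Of 40659 identifiers, 39641 were named from GENCODE.

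After filterByExpr, 17252 genes were tested by the quasi-likelihood method of edgeR 4.0.16 (R 4.3.3), fitted as in edgeR 3, with TMM normalization, 3 surrogate variables (svaseq, sva 3.50.0) and Benjamini-Hochberg adjustment. The study's methods name the likelihood ratio test, which was an alternative, as was DESeq2 1.42.0. CPM were counts scaled to the TMM-adjusted library size, and log2 CPM used a prior count of 2. SEs came from the fold change and test statistic. Exact permutation tests over the 70 splits of single genes were two-sided. The functions were tested on simulated data. The labels do not name shared litters or cages, and p-values measure the spread between these animals.

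The genes, gene lists and tests were chosen with earlier results of these data known. Values per library are given for genes with an unadjusted p below 0.05 or groups without overlap, and for the extremes of fold change and level in each role. Genes under the filter are given by their mean level and total counts. Adcyap1, Npy, Tacr3, Pdyn, Sstr1 and Oprd1 are described in addition, after their values were seen.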

Additional observations from a re-analysis of the deposited data

Results flagged for a closer look

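In 8 of 78 groups of 4 libraries, formed by the 39 tested genes in each condition, 1 library stood apart from the other three by Dixon's criterion, where chance gives about 3.9. The library was hpCTL replicate 1 in 5 of them. It had the high value for Pvalb (36.8 CPM, others 22.9 to 24.7), Chga (155 CPM, others 126 to 128) and Cpe (3032 CPM, others 2341 to 2370). It had the low value for Sstr4 (6.43 CPM, others 14.4 to 16.0) and for Oprd1, the delta opioid receptor gene (5.07 CPM, others 10.4 to 11.1). Replicate 4 of hp708 was high for Vgf (198 CPM, others 148 to 152) and Chgb (890 CPM, others 523 to 572). Replicate 2 of hp708 was high for Nmb (3.65 CPM, others 2.23 to 2.43).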

How the results depend on the processing

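With all libraries kept, no alternative called a listed gene at an FDR below 0.05. The number of listed genes at an unadjusted p below 0.05, 5 in the reported fit (7.7% of all genes), was 3 without surrogate variables (1.81% of all genes), 3 by DESeq2 on 3 surrogate variables (5.02%), 13 where every library needed at least 10 counts (5.72%), and 12 with surrogate variables from scaled counts (13.3%), an alternative chosen after seeing the data. Over all genes, 1 was called in the reported fit, 0 without surrogate variables, 0 with 1 or 2 of them, 0 with the filter of 10 counts, 0 with scaled counts, 2 by DESeq2 without them, 3 by the quasi-likelihood method of edgeR 4, 12 without a filter, 96 by DESeq2 on 3 surrogate variables, and 127 by the likelihood ratio test. Leaving out each library in turn, with and without surrogate variables, gave 1 to 18 listed genes at an unadjusted p below 0.05, 0 to 1 called, and 0 to 56 genes called over all. The 18 came without the library labelled hp708 replicate 1, where 12.2% of all genes passed, and 17 came without hp708 replicate 2, where 12% did. The cause was not tested.

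Among the 15 genes named by the rule, 172 of their values under alternatives with all libraries kept their direction and 7 turned it. None passed an FDR of 0.05, and the unadjusted p changed side in some, as for Sst and Sstr3, which were below 0.05 in 6 and 5 of 12 alternatives. Those 7 were Calb2 with DESeq2 without surrogate variables (0.0031) and Cpe without surrogate variables (-0.036), with 1 surrogate variable (-0.014), with DESeq2 without surrogate variables (-0.030), without a filter (-0.0040), with the replicate block (-0.027) and with scaled counts (-0.014). With a library left out, 219 values kept their direction and 21 turned it, in genes whose log2 fold changes ranged from -0.37 to 0.090 (Adcyap1r1), -0.81 to 0.35 (Calb2), -0.031 to 0.38 (Chgb), -0.071 to 0.068 (Cpe), -0.0021 to 0.10 (Pcsk2), -0.031 to 0.72 (Penk) and -0.17 to 0.022 (Scg2). Vip, Sst, Nmb, Cartpt and Sstr3 turned direction in none of these fits.

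Replicate numbers did not pair the animals: libraries with the same number had correlations of their deviations between -0.041 and 0.018, and none was closest to its own number. The replicate block without surrogate variables gave 5 listed genes at an unadjusted p below 0.05, against 1.58% of all genes, and called 1 gene. Cartpt rested on 9 to 38 counts per library.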

Other observations

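Rxfp1 and Npsr1 shared an order of libraries with some markers of subiculum and cortex, which were picked out after their values were seen. Rxfp1 measured 9.03, 22.7, 14.6 and 23.4 CPM in hpCTL and 18.2, 6.09, 5.16 and 6.11 CPM in hp708. Npsr1 was near its detection limit, at 0.571, 2.49, 1.15 and 1.43 CPM in hpCTL and 1.56, 0.0435, 0.213 and 0.165 CPM in hp708. Tshz2, a marker of subiculum and retrosplenial cortex, measured 22.95, 58.8, 36.5 and 54.5 CPM in hpCTL and 53.8, 16.2, 16.8 and 16.1 CPM in hp708. Fezf2, a transcription factor of deep-layer cortical neurons, measured 41.8, 44.6, 37.3 and 44.5 CPM in hpCTL and 43.97, 27.9, 29.2 and 29.6 CPM in hp708. In each of these 4 genes the library labelled hp708 replicate 1 lay inside the hpCTL range and the other hp708 libraries below all hpCTL libraries. Rspo2, from the same list, measured 19.6, 24.7, 23.6 and 24.4 CPM in hpCTL and 26.7, 11.8, 14.5 and 17.5 CPM in hp708. There the library labelled hp708 replicate 1 lay above the hpCTL range and the other hp708 libraries below it. Further markers of the list did not share this order. Tle4 was highest in hp708 replicate 4 at 68.4 CPM, and all hp708 values of Fn1, from 67.4 to 104 CPM, lay inside the hpCTL range. Slc17a6, the vesicular glutamate transporter of subiculum and thalamus, measured 11.4, 18.02, 15.1 and 19.2 CPM in hpCTL and 15.8, 11.6, 6.95 and 4.83 CPM in hp708, where replicate 2 also lay inside the hpCTL range, with a log2 fold change of -0.75 (edgeR's quasi-likelihood test, FDR = 0.386).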
